A study of Mus musculus with 6 samples.

Results

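The 9 genes described here encode enzymes with which the heart burns ketone bodies and branched-chain amino acids (BCAA), together with the kinase and the phosphatase that set the pace of BCAA oxidation. They were chosen by symbol for these roles, with earlier results of these data known, and each was found by its Ensembl identifier as 1 row of the 38293 genes in the deposited count table. Bdh1, Oxct1 and Acat1 act on ketone bodies, Bcat2, Bckdha, Bckdhb and Dbt on BCAA, and Bckdk and Ppm1k regulate the latter step. All 9 passed the filter on low counts, which 14746 genes passed in all.

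RNA-seq compared infarcted hearts of 3 WT and 3 Zeb2 cKO mice, a strain backcrossed to C57BL/6J, with a permanent occlusion of the left anterior descending artery and tissue taken 14 days later. According to the study's methods, both groups carried the floxed Zeb2 alleles (Zeb2 fl/fl), the Zeb2 cKO mice also carried a Cre transgene under the Myh6 promoter, which is active in cardiomyocytes, and the animals were adult males. No Cre-positive group without floxed alleles was compared here. The labels place the tissue in the border region of the infarct, the methods in the remote zone, and the RNA came from all cells of the tissue.

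Ketone bodies reach the heart from the liver as 3-hydroxybutyrate and acetoacetate. BDH1 oxidises the former to the latter, OXCT1 moves coenzyme A onto acetoacetate and so commits it to oxidation, and ACAT1 splits the product into acetyl-CoA for the tricarboxylic acid (TCA) cycle. Leucine, isoleucine and valine are first stripped of their amino group by the mitochondrial transaminase BCAT2. The branched-chain ketoacid dehydrogenase (BCKDH) complex then decarboxylates the resulting ketoacids irreversibly, with BCKDHA and BCKDHB as the subunits of its E1 component, DBT as E2 and the shared DLD as E3. BCKDK phosphorylates BCKDHA and switches the complex off, and the mitochondrial phosphatase PPM1K removes that phosphate. OXCT1 is known to be abundant in heart muscle, and lowered BCAA catabolic transcripts have been described in failing hearts.

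The loci lie on GRCm38 chromosomes 16 (Bdh1, 31422280 to 31458901, plus strand), 15 (Oxct1, 4026383 to 4155344, plus), 9 (Acat1, 53580522 to 53610382, minus, and Bckdhb, 83925145 to 84124240, plus), 7 (Bcat2, 45570153 to 45589711, plus, Bckdha, 25629946 to 25658981, minus, and Bckdk, 127904082 to 127910221, plus), 3 (Dbt, 116513070 to 116549981, plus) and 6 (Ppm1k, 57506502 to 57535468, minus). All are annotated as protein-coding. Of the exon bases of Bckdha, 61.7% are also exon bases of B3gnt8, a glycosyltransferase gene on the other strand. The libraries were strand-specific, but the strand setting of the counting was not stated, and without it reads of both genes could not be told apart. B3gnt8 held 28 to 81 counts per library where Bckdha held 1541 to 4167. Oxct1 shares 12.6% of its exon bases with BC037032 and Bdh1 13.7% with Gm15743, both on the opposite strand and with at most 142 and 11 counts per library. The counts of these 3 genes are uncertain to that extent. Of Bcat2, 16.0% of the exon bases also lie in an antisense transcript, 0610005C13Rik, that has no row in the count table, and its counts are uncertain in the same way. Other genes matched, over 75 bases or more with 95% identity or more, 3.6% of the longest transcript of Dbt, 5.17% of that of Bckdk and 6.92% of that of Ppm1k, and 0% for Acat1 and Bckdhb.

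ZEB2 is a repressor and activator that binds the sequence CACCTG. This sequence and its reverse complement were searched in the windows from 250 bases before to 50 bases after the annotated starts, in the RefSeq set for GRCm38.p6, which held 10 windows for 7 of the 9 genes, Acat1 and Dbt not among them. Both windows of Bcat2 held 1 match, and the windows of Bdh1, Oxct1, Bckdha, Bckdhb, Bckdk and Ppm1k held none. The 2 matches are shown with the bases around them, and a link between them and the level of Bcat2 was not tested. Both are on the plus strand, and the capitals mark the motif.
Bcat2, chr7:45569934-45569963: cagagatccttcCACCTGtctcccaaacgc
Bcat2, chr7:45571255-45571284: gctgttagctccCACCTGcttatcagaagt
The first motif begins 207 bases before the first annotated start and the second 12 bases before a later one. Among all 32851 windows of this length 20.2% held the motif, against 20% of the 10 windows here. By gene, 22.6% of 27025 genes held it, against 14.3% of the 7 genes here. A match describes the letters only, and no binding was measured.

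The libraries held between 37288174 and 51136331 counts, of which 60.5% to 67.0% came from mitochondrially encoded genes. Values are given as CPM, a gene's count relative to the library total after edgeR's TMM scaling. Zeb2 itself was at 61.3, 116 and 71.9 CPM in WT replicates 1, 2 and 3 and at 59.6, 72.6 and 66.5 CPM in Zeb2 cKO replicates 1, 2 and 3, so the tissue values of the targeted gene overlapped between genotypes. WT replicate 2 stood apart from the other libraries. Its 12 cardiomyocyte markers summed to 12138 CPM, against 21478 to 27111 CPM in the other 5 libraries. Its 12 macrophage markers summed to 935 CPM, against 236 to 332 CPM in the others, and its 12 fibroblast markers to 10576 CPM, against 1856 to 2575 CPM. The fold changes below are therefore given with and without this library. In bulk tissue, fewer cells of a type and less RNA per cell cannot be told apart.

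The ketone genes did not differ between genotypes beyond the spread of the replicates. Oxct1 was at 546, 314 and 520.1 CPM in WT replicates 1, 2 and 3 and at 585, 553 and 476 CPM across Zeb2 cKO replicates. Bdh1 was at 58.8, 28.6 and 42.7 CPM in WT and at 47.6, 45.8 and 51 CPM in Zeb2 cKO hearts. Acat1 was at 206, 106 and 185 CPM in WT and at 210.5, 221 and 158 CPM in Zeb2 cKO hearts. In each of the 3 the lowest library was WT replicate 2, and the Zeb2 cKO libraries lay among or beside the other WT libraries. The group means were 460 ± 127 and 538 ± 56.2 CPM for Oxct1, 43.3 ± 15.1 and 48.1 ± 2.62 CPM for Bdh1, and 166 ± 52.8 and 196 ± 34.0 CPM for Acat1 (WT and Zeb2 cKO, SD, n = 3 each). The log2 fold change (Zeb2 cKO over WT) was 0.23 for Oxct1, with a 95% interval from -0.36 to 0.81. For Bdh1 it was 0.15 (interval -0.44 to 0.74) and for Acat1 0.25 (interval -0.41 to 0.90). The adjusted p was 0.957 for each, computed by the edgeR quasi-likelihood test and adjusted after Benjamini and Hochberg over all tested genes, as in every later adjusted p. Without WT replicate 2 the values were 0.017, -0.073 and 0.0098 for Oxct1, Bdh1 and Acat1.

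**Figure D1:**
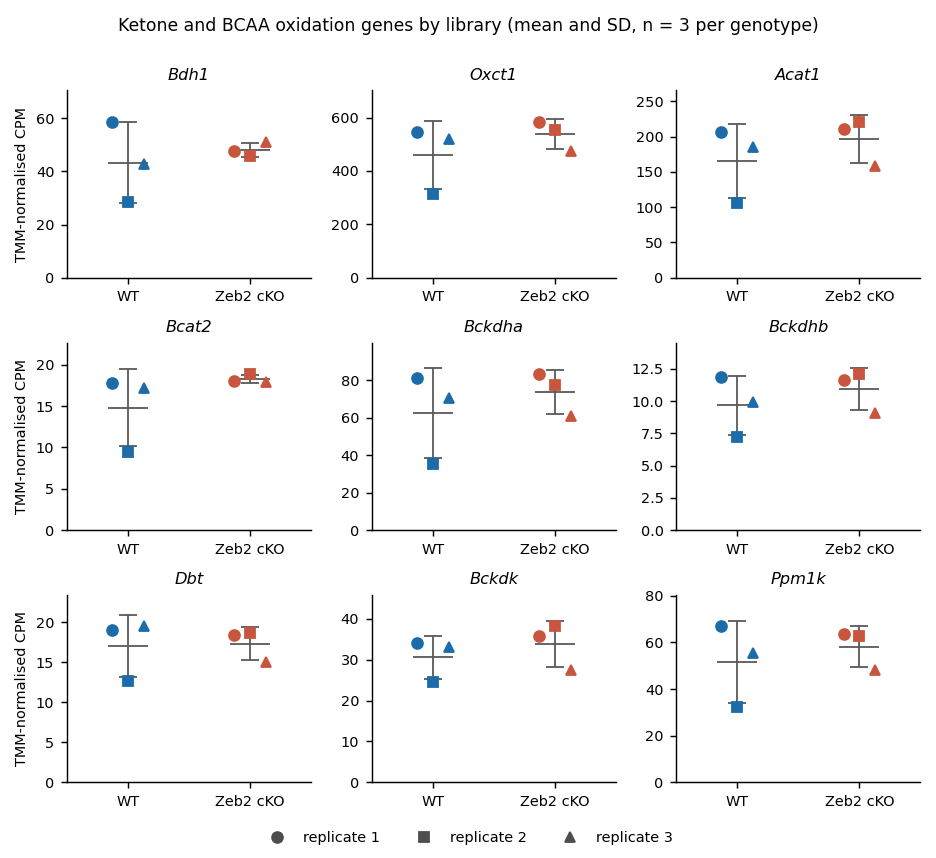
CPM of each of the 9 genes (vertical axes from 0) in the WT and Zeb2 cKO libraries, with replicates 1, 2 and 3 as circle, square and triangle and the mean and SD of 3 libraries as lines. WT replicate 2 is the lowest library in all 9 panels, from 7.25 CPM for Bckdhb to 314 CPM for Oxct1.

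Among the 9 genes only Bcat2, the mitochondrial transaminase, had genotypes that did not overlap. The cytosolic transaminase Bcat1 went the other way, with Zeb2 cKO wholly below WT (log2 fold change -0.64, described below). Bcat2 was at 17.8, 9.46 and 17.2 CPM in WT replicates 1, 2 and 3 and at 18.1, 18.9 and 17.9 CPM across Zeb2 cKO replicates. The lowest Zeb2 cKO library (17.92 CPM) thus lay above the highest WT library (17.82 CPM). This margin was small beside the distance of WT replicate 2 from its group. The exact permutation test gave a two-sided p of 0.1, the smallest that 3 against 3 can give. That value follows from the order of the libraries alone, and for every other gene of the 9 it was 0.5 or more. Means were 14.8 ± 4.66 CPM in WT and 18.3 ± 0.518 CPM for Zeb2 cKO (mean ± SD, n = 3). The log2 fold change was 0.30 (standard error 0.24, interval -0.26 to 0.87, adjusted p = 0.957), and 0.067 without WT replicate 2 (interval -0.16 to 0.29), where 15.5% of all tested genes had groups that did not overlap and 8.31% had Zeb2 cKO wholly above WT. Of all tested genes, 6.36% had groups that did not overlap and 3.39% had Zeb2 cKO libraries wholly above the WT libraries, beside 1 of these 9.

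The subunits of the BCKDH complex overlapped between genotypes. Bckdha, for the E1 alpha subunit that carries the regulatory phosphate, was at 80.9, 35.1 and 70.6 CPM in WT replicates 1, 2 and 3 and at 83.3, 77.3 and 60.8 CPM across Zeb2 cKO replicates. Bckdhb, for E1 beta, was at 11.8, 7.25 and 9.92 CPM in WT and at 11.6, 12.1 and 9.08 CPM in Zeb2 cKO hearts. Dbt, for the E2 core, was at 19.0, 12.6 and 19.5 CPM in WT and at 18.4, 18.6 and 15.1 CPM in Zeb2 cKO hearts. WT replicate 2 was again the lowest library of each, and Zeb2 cKO replicate 3 was the lowest of its group. The log2 fold change was 0.25 for Bckdha (interval -0.48 to 0.98), 0.18 for Bckdhb (interval -0.32 to 0.67) and 0.026 for Dbt (interval -0.43 to 0.49). The adjusted p was 0.957 for Bckdha and Bckdhb and 0.991 for Dbt. Leaving out WT replicate 2 gave -0.036, 0.0088 and -0.15, which for Bckdha and Dbt turned the direction. For Dbt the 3 Zeb2 cKO libraries then all lay below the remaining WT libraries (interval -0.44 to 0.14, adjusted p = 1.00 with edgeR), as they did for 7.22% of all genes tested without that library. The estimate for Dbt was below 0 also with Zeb2 cKO replicate 1 (-0.017) or replicate 2 (-0.026) left out.

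For both regulators of the complex WT replicate 2 was the lowest library and Zeb2 cKO replicate 3 the next lowest, as for Bckdha. Bckdk, the inhibiting kinase, was at 34.1, 24.5 and 33.0 CPM in WT replicates 1, 2 and 3 and at 35.7, 38.1 and 27.5 CPM across Zeb2 cKO replicates. Ppm1k, the activating phosphatase, was at 66.9, 32.3 and 55.4 CPM in WT and at 63.5, 62.9 and 48.0 CPM in Zeb2 cKO hearts. Both genes overlapped between genotypes. Their log2 fold changes were 0.15 for Bckdk (interval -0.29 to 0.58) and 0.17 for Ppm1k (interval -0.47 to 0.82), each with an adjusted p of 0.957. With WT replicate 2 omitted these were 0.011 and -0.070.

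**Figure D2:**
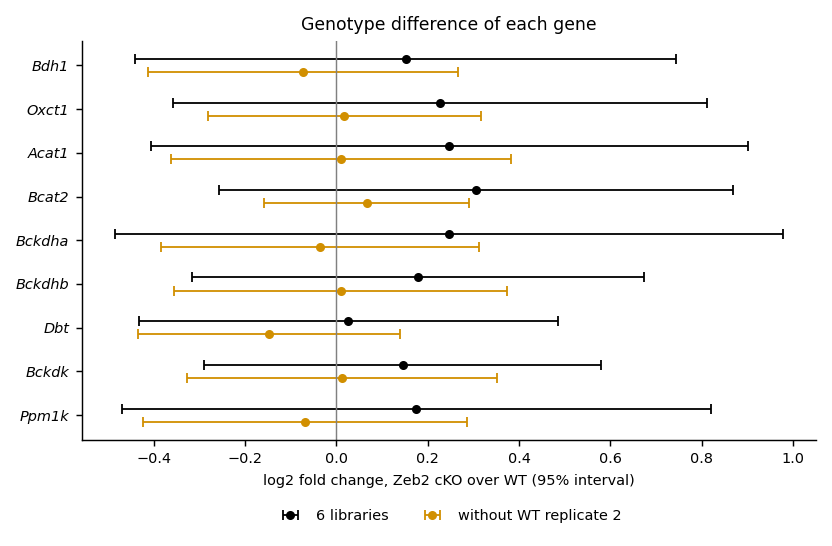
Log2 fold change of Zeb2 cKO over WT for each gene with its 95% interval (horizontal axis), from 6 libraries (black) and without WT replicate 2 (orange). All intervals include 0, and the black points lie between 0.026 (Dbt) and 0.30 (Bcat2) and the orange points between -0.15 (Dbt) and 0.067 (Bcat2).

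Over the 9 genes, 0 were called at an adjusted p under 0.05 by edgeR's quasi-likelihood test and 0 by DESeq2, and 0 reached an unadjusted p under 0.05 with either. Among all 14746 tested genes edgeR called 0%, and 1.9% had an unadjusted p under 0.05 (1.04% higher and 0.861% lower in Zeb2 cKO). A log2 fold change over 0.2, a cutoff of size alone, was reached by 4 of the 9 (Bcat2, Acat1, Bckdha and Oxct1), beside 15.9% of all tested genes, and one under -0.2 by 0 of the 9, beside 22.6%. The median of the 9 was 0.18, beside -0.0069 over all tested genes. Without WT replicate 2 the median was 0.0088, beside 0.0025 over all tested genes, and 0 of the 9 were over 0.2, beside 14.2%. The intervals without that library still allowed a difference of up to 0.38 (Acat1) or a difference down to -0.44 (Dbt) on the log2 scale, and Bcat2 had the narrowest of the 9.

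Levels of different genes were compared per length, as CPM per kilobase of exon. Oxct1 had the highest level, at 84.9 to 158 over the 6 libraries with a median of 144. Acat1 followed at 28.1 to 58.9 and Bckdha at 18.5 to 43.9. Bdh1 was at 7.35 to 15.1, Ppm1k at 5.37 to 11.1 and Bckdk at 6.64 to 10.3. The lowest were Bckdhb at 4.01 to 6.70, Dbt at 3.77 to 5.83 and Bcat2 at 2.42 to 4.85. In this order the ranges of Oxct1 and Acat1 and those of Bckdha and Bdh1 lay apart, and those of the other 6 of the 8 neighbouring pairs overlapped. Lengths came from a later release of the annotation than the counts, so the order is approximate. For Bckdha it also rests on the counts in the stretch shared with B3gnt8.

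**Figure D3:**
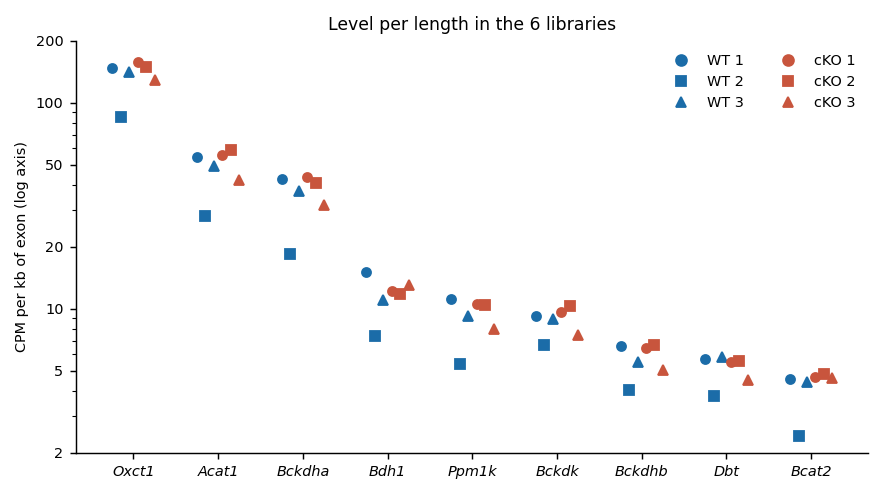
Level of each gene in CPM per kilobase of exon (vertical log axis) in the 3 WT (blue) and 3 Zeb2 cKO (red) libraries, ordered by mean. Oxct1 lies highest with a median of 144, and Bcat2 lowest, with no library above 4.85.

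Ratios of 2 genes within a library do not depend on the scaling of that library. Per length, Oxct1 was 9.75, 11.6 and 12.8 times Bdh1 in WT replicates 1, 2 and 3 and 12.9, 12.7 and 9.80 times across Zeb2 cKO replicates. Oxct1 was between 2.54 and 3.06 times Acat1 in all 6 libraries. These ketone ratios overlapped between genotypes, and WT replicate 2 lay inside the range of the other libraries in both. Bckdhb and Dbt were close to each other, with a ratio from 0.944 to 1.2. Bckdha was 4.61 times Bckdhb in WT replicate 2 and 6.08 to 6.81 times in the other libraries. The level of the kinase Bckdk over that of the phosphatase Ppm1k was 0.831, 1.24 and 0.972 in WT replicates 1, 2 and 3 and 0.916, 0.987 and 0.934 across Zeb2 cKO replicates. WT replicate 2 was thus the library with the highest kinase level relative to the phosphatase, and the genotypes overlapped. On the log2 scale the mean Bckdk to Ppm1k ratio was -0.00084 ± 0.29 in WT and -0.081 ± 0.056 for Zeb2 cKO (mean ± SD, n = 3). The mean of the 3 subunits over Bckdk was 0.19 ± 0.19 and 0.23 ± 0.063 on the same scale.

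**Figure D4:**
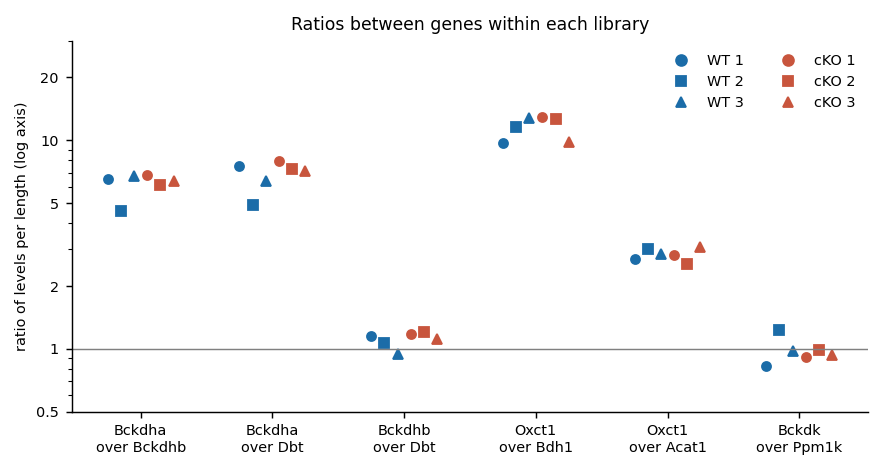
Ratios of levels per length between pairs of the 9 genes (vertical log axis, line at 1) in the 3 WT (blue) and 3 Zeb2 cKO (red) libraries. WT replicate 2 has the lowest ratio of Bckdha to Bckdhb (4.61) and the highest of Bckdk to Ppm1k (1.24), while the ratio of Oxct1 to Acat1 keeps between 2.54 and 3.06.

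The 9 genes varied together over the libraries. Centred on its average over the 6 libraries, their mean log2 CPM was 0.23, -0.63 and 0.064 in WT replicates 1, 2 and 3 and 0.21, 0.21 and -0.073 across Zeb2 cKO replicates. The cardiomyocyte markers were at 0.29, -0.77 and 0.14 in WT and at 0.21, 0.14 and -0.0072 in Zeb2 cKO hearts on the same scale. Both sets were thus lowest in WT replicate 2 and, within the Zeb2 cKO group, in replicate 3. In WT replicate 2 the CPM was 46.3% of the mean of WT replicates 1 and 3 for Bckdha, 52.9% for Ppm1k, 54.0% for Bcat2, 54.1% for Acat1, 56.3% for Bdh1, 59.0% for Oxct1, 65.5% for Dbt, 66.6% for Bckdhb and 73.0% for Bckdk. The summed cardiomyocyte markers of that library were at 48.2% of the same mean. Myh6 was the largest part of this sum, at 8978, 2767 and 6733 CPM in WT replicates 1, 2 and 3. Other markers differed less, such as Myl2 at 2503, 2117 and 2386 CPM. Zeb2 cKO replicate 3 was the lowest of its group in 8 of the 9 genes, while Bdh1 was highest there.

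Taken relative to the summed cardiomyocyte markers of the same library, all 9 genes overlapped between genotypes. The difference of the means (Zeb2 cKO minus WT) ranged from -0.21 for Dbt to 0.10 for Bcat2 on the log2 scale, and from -0.068 for Dbt to 0.15 for Bcat2 without WT replicate 2. Relative to these markers WT replicate 2 was the highest of the 6 libraries for Oxct1, Bckdhb, Dbt, Bckdk and Ppm1k. These values rest on a sum in which Myh6 weighs most, and other sums of markers were not tested. For Dbt the values on this scale were -10.48, -9.91 and -10.22 in WT and -10.42, -10.34 and -10.48 in Zeb2 cKO hearts. Of the macrophage and of the fibroblast markers 12 of 12 were under -0.2 in the comparison of genotypes, with medians of -0.81 and -0.93 that became 0.014 and 0.048 without WT replicate 2. Of the cardiomyocyte markers 3 of 12 were over 0.2 (median 0.16, and -0.11 without that library), and the endothelial markers had a median of 0.14, and of -0.0046 without it. The part of cell composition in the level of each gene was not tested.

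**Figure D5:**
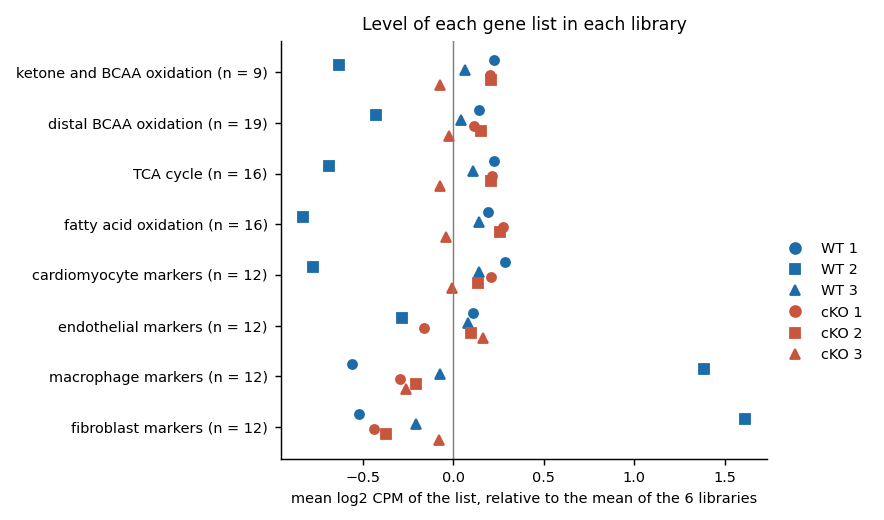
Mean log2 CPM of each gene list relative to the mean of the 6 libraries (horizontal axis), for 3 WT (blue) and 3 Zeb2 cKO (red) libraries. WT replicate 2 lies lowest for the 9 genes (-0.63) and for the cardiomyocyte markers (-0.77) and highest for the macrophage (1.38) and fibroblast markers (1.61).

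The 3 tested genes whose log2 CPM went most closely with the mean of the 9 over the 6 libraries were Atp5a1, a subunit of ATP synthase (Pearson's r = 0.999), Nap1l4, a nucleosome assembly protein (0.999), and Fh1, the fumarase of the TCA cycle (0.998). These are descriptions over 6 libraries that share their scaling, and 1773 genes had an r over 0.9. Atp5a1 was at 1659, 680 and 1454 CPM in WT replicates 1, 2 and 3 and at 1637, 1669 and 1224 CPM in Zeb2 cKO hearts. Among the 36 pairs of the 9 genes r ran from 0.62, for Bdh1 with Bckdk, to 0.995, for Oxct1 with Bckdha.

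Further steps of both pathways were taken from lists written with earlier results of these data known. The enzymes that follow the BCKDH step, with the shared E3 subunit Dld, numbered 19, all tested, of which 0 passed an adjusted or an unadjusted p of 0.05 in either direction with edgeR. Their median log2 fold change was 0.12, 7 were over 0.2 and 0 under -0.2, and the median was 0.0037 without WT replicate 2. Those with the smallest p were Acad8 of the valine branch (0.29, interval -0.22 to 0.80), Mmaa of cobalamin handling (0.25), Mcee of propionate use (0.21), Auh of leucine breakdown (0.28) and Mmab of cobalamin handling (0.25). With WT replicate 2 left out these were 0.083 for Acad8, 0.086 for Mmaa, 0.090 for Mcee, 0.11 for Auh and 0.047 for Mmab. Dld was at 92.4 ± 13.2 CPM in WT and 97.2 ± 3.89 CPM for Zeb2 cKO (mean ± SD, n = 3).

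Of 8 genes of BCAA entry, all tested, 0 passed either threshold with all libraries. Bcat1, the cytosolic transaminase, was at 2.00 ± 0.776 CPM in WT and 1.29 ± 0.105 CPM in Zeb2 cKO hearts (log2 fold change -0.64, interval -1.34 to 0.058, unadjusted p = 0.0668, adjusted p = 0.957), and its Zeb2 cKO libraries all lay below the WT libraries, beside 2.97% of all tested genes. In the fit that left out WT replicate 2, which held 2.89 CPM, the log2 fold change of Bcat1 was -0.27 (interval -0.74 to 0.21). Per length the level of Bcat1 was at most 0.310, below the lowest value of the mitochondrial Bcat2 (2.42). The others named by their p were the amino acid transporters Slc7a8 (-0.52) and Slc43a2 (-0.10), the mitochondrial BCAA carrier Slc25a44 (0.084) and Klf15, a transcription factor that promotes BCAA catabolism (-0.13), and each overlapped between genotypes. Leaving WT replicate 2 out gave values of -0.037 for Slc7a8, -0.11 for Slc43a2 and -0.011 for Slc25a44. For Klf15 it was then -0.36, with the only unadjusted p under 0.05 of the 8 genes (0.0487, adjusted p = 1.00, edgeR). In that fit 393 of 14966 genes had such a p. The Zeb2 cKO libraries of Klf15 then lay wholly below the WT libraries, beside 7.22% of all genes. With all libraries its unadjusted p was 0.62 (edgeR). Klf15 was at 7.27 ± 2.38 CPM in WT and 6.62 ± 0.891 CPM for Zeb2 cKO (mean ± SD, n = 3).

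Of 13 other genes of ketone body synthesis, use and transport, 10 were tested and 0 passed either threshold. Their median was -0.26, 6 were under -0.2 and 0 over 0.2. Without WT replicate 2 the median was -0.024. Aacs, the cytosolic acetoacetyl-CoA synthetase, had its Zeb2 cKO libraries below the WT libraries (-0.27, interval -0.65 to 0.12, adjusted p = 0.957), beside 2.97% of all tested genes. The others named by their p were the transporters Slc16a6 (-0.33) and Slc16a3 (-0.48) and the cytosolic dehydrogenase Bdh2 (-0.77), and each overlapped between genotypes. WT replicate 2 held the highest value of Bdh2 (1.89 CPM) and of Slc16a3 (3.24 CPM). Without it the direction of both turned, to 0.65 for Bdh2 (interval -0.27 to 1.58) and 0.15 for Slc16a3 (interval -0.53 to 0.83), while Slc16a6 was at -0.32 and Aacs at -0.21. The Zeb2 cKO libraries then lay wholly above WT for Bdh2 and wholly below for Aacs, beside 8.31% and 7.22% of all genes. Oxct2a and Oxct2b, the testis forms of Oxct1, had at most 1 count in any library.

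Related fuel pathways gave values of the same kind. Of 16 genes of the TCA cycle 9 were over 0.2, with a median log2 fold change of 0.21, and of 16 of mitochondrial fatty acid oxidation 13 were, with a median of 0.29, beside 0.18 for the 9 genes here. Without WT replicate 2 these medians were -0.011, 0.023 and 0.0088. All 3 sets had 0 genes at an unadjusted p under 0.05 with edgeR. The differences between the lists were not tested.

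Fat cells also oxidise BCAA, and their markers were few in this tissue. The 12 adipocyte markers summed to 5.72 to 11.1 CPM in WT and 10.3 to 15.7 CPM in Zeb2 cKO libraries. Cidea made up most of this sum, at 5.15 to 9.74 CPM in WT and 8.55 to 13.1 CPM in Zeb2 cKO libraries. The other 11 summed to 0.570 to 1.35 CPM in WT and 1.51 to 3.92 CPM in Zeb2 cKO libraries, which did not overlap. Adipoq, their defining hormone, had 2 to 5 counts in WT and 8 to 25 in Zeb2 cKO libraries, and Lep had 0 counts in WT and at most 1 in any Zeb2 cKO library. Not all markers went this way. Acvr1c had a mean of 0.170 CPM in WT and 0.126 CPM in Zeb2 cKO hearts, and Ucp1 had 1 count in WT replicate 1 and 0 elsewhere. Pck1 was highest in WT replicate 1, at 0.451 CPM, and its log2 fold change was -0.28 without WT replicate 2. Of the 12 markers 3 passed the filter on low counts. Each had a log2 fold change over 0.2, beside 15.9% of all tested genes. Adig was at an unadjusted p under 0.05 with edgeR (log2 fold change 1.83, and 1.70 without WT replicate 2), and 0 of the 3 at an adjusted one. Adig held 4, 3 and 3 counts in WT replicates 1, 2 and 3 and 20, 10 and 15 across Zeb2 cKO replicates. With so few WT counts it passed the filter through its Zeb2 cKO counts, so the filter partly set its direction and no conclusion is drawn. The part of fat tissue in the levels of the 9 genes was not tested.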

How the data were processed

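The deposited file is a table of raw gene counts made by the authors. Per the methods, RNA depleted of ribosomal RNA was made into stranded libraries, read as single ends, aligned to GRCm38 and counted on Gencode M4 with the STAR workflow; the handling of multi-mapping reads and the strand setting are not given in the sources used here. The study tested genes with DESeq, which was not used here. Columns were matched to samples by their description, and 0 columns were left unmatched.

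From these counts, edgeR 4.0.16 (R 4.3.3) was run with TMM, filterByExpr defaults, glmQLFit and glmQLFTest, genotype as the only factor, and Benjamini-Hochberg adjustment over 14746 genes. Standard errors are the log2 fold change divided by the root of F, and intervals use the test's degrees of freedom. Log2 CPM used a prior count of 2. Single genes were compared by exact permutation tests. Symbols, loci and exon lengths came from Gencode M21 (GRCm38) by identifier, found for 36429 of 38293 genes, and similar stretches from BLAST 2.17.0. Figures were drawn with matplotlib 3.10.9. The steps were tested on simulated counts.

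The 9 genes and all lists were chosen with earlier results of these data known. Beside the 9 genes and Zeb2, up to 5 genes of each pathway list with the smallest p and the 3 most correlated genes are named. Dld, Oxct2a, Oxct2b, the antisense partners, Adig, Cidea, Adipoq, Lep, Acvr1c, Ucp1, Pck1, Myh6 and Myl2 were added after their values were seen. Amino acid sequences are not used here. The values of 1 gene that this rule names are not reported here. Each sample is 1 mouse as far as the labels say. Depth leaves counting error small for these genes, which held 318 to 29276 counts per library, so the spread between libraries sets the precision. Alternatives were TMM against DESeq2 size factors, the low-count filter, DESeq2 1.42.0, robust dispersions, mitochondrially encoded genes, the replicate number, 2 covariates and each library left out.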

Additional observations from a re-analysis of the deposited data

How the results depend on the processing

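The number of the 9 genes called stayed at 0 in all 14 alternatives, with adjusted p-values from 0.596 upward, and 0 of them reached an unadjusted p under 0.05. Over all genes edgeR called 0 in either direction in every alternative, beside 122 to 1134 genes at an unadjusted p under 0.05, and DESeq2 called 2 higher genes.

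The number of the 9 genes over 0.2, 4 with all libraries, was 0 with the macrophage markers as a covariate and 0 with the cardiomyocyte markers, and ran from 0 to 8 as each library was left out, with 0 without WT replicate 2, 8 without WT replicate 1, 1 without Zeb2 cKO replicate 1 and 7 without Zeb2 cKO replicate 3. The median of the 9 ran from 0.0088 to 0.41 over the left-out libraries and was 0.029 with the macrophage and 0.051 with the cardiomyocyte covariate. Of 126 fold changes over alternatives 116 kept their direction and 10 turned. With the macrophage covariate Bdh1 turned to -0.046, Dbt to -0.12 and Ppm1k to -0.032, and with the cardiomyocyte covariate Dbt to -0.096. Without WT replicate 2 Bckdha turned to -0.036, Bdh1 to -0.073, Dbt to -0.15 and Ppm1k to -0.070, and without Zeb2 cKO replicate 1 or 2 Dbt turned to -0.017 and -0.026. Over the left-out libraries Bckdha ran from -0.036 to 0.48, Bdh1 from -0.073 to 0.44, Dbt from -0.15 to 0.13 and Ppm1k from -0.070 to 0.41. The difference in the log2 ratio of Bckdk to Ppm1k ran from -0.21 to 0.073 (0.073 without WT replicate 2), that of the subunits to Bckdk from -0.063 to 0.12 (-0.063 without WT replicate 2), and that of Oxct1 to Bdh1 from -0.055 to 0.18 (-0.055 without WT replicate 1, -0.019 and -0.0059 without Zeb2 cKO replicate 1 and 2). The cause was not tested.

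Replicate numbers 1, 2 and 3 occur in both genotypes, but same-numbered libraries did not deviate together (r = 0.088, -0.14 and -0.087). No library correlated best with its own number. With the replicate block 6 of the 9 genes were over 0.2, their median was 0.22, and 0 were called.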
